A study of Mus musculus with 6 samples.

Results

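The cytosolic ribosomal protein genes were taken from the deposited table by symbol, as every row named Rps or Rpl with a number and at most a short suffix, together with Rplp0, Rplp1, Rplp2 and Rpsa. The rule leaves out 1 gene that matches the pattern. This gave 78 of the 14865 listed genes, and all 78 reached the minimum of 40 normalised reads in at least 1 library, as did 14455 genes in all. Rpl23a, Rpl24, Rpl35 and Rps29 fit the pattern but are not among the 78, so the set is not the whole family. The authors dropped genes under 40 reads, and why these genes are absent was not tested. Of the 78 members, 75 are annotated as protein-coding and 3, Rps3a2, Rps3a3 and Rps4l, as processed pseudogenes that carry a member's name. They lie on 19 chromosomes, 4 of them on chromosome X.

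RNA came from cochlear ducts of mice labelled C57BL/6, of a line kept on C57BL/6J, at postnatal day 8 (P8), with 3 libraries of Gfi1+/+ mice and 3 libraries of Gfi1cre/+ mice, in which Cre recombinase replaces part of exon 1 and exons 2 to 5 in 1 allele of Gfi1, a transcription factor of hair cells (HCs) and blood cells. Each Gfi1+/+ library held RNA of 2 cochleae from 1 mouse, and each Gfi1cre/+ library held RNA of 6 cochleae from 3 mice. The number of mice per library and the genotype therefore cannot be told apart. Y-linked transcripts were present in the Gfi1cre/+ libraries and at or near 0 in the Gfi1+/+ libraries (Ddx3y at 232, 289 and 485 normalised reads against 0 in every Gfi1+/+ library), so sex and genotype cannot be told apart either. Between 13603908 and 19359753 reads per library fell on genes. Gfi1 stood at 147, 160 and 152 normalised reads in Gfi1+/+ and at 136, 130 and 139 in Gfi1cre/+. Exons after the replaced part stay in both alleles, so reads of the whole gene check the genotype only in part.

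The cytosolic ribosome reads mRNA in its small subunit and joins amino acids in its large subunit. Each subunit is built on ribosomal RNA that carries many ribosomal proteins, named Rps in the small and Rpl in the large subunit, and the acidic proteins Rplp1 and Rplp2 form, on Rplp0, a flexible stalk that recruits translation factors. Most of the proteins are needed in equal numbers. Their mRNAs share a tract of C and T at the 5′ end, the terminal oligopyrimidine (TOP) tract, through which mTOR signalling and Larp1 control their translation together. Mammalian genomes also hold many retrotransposed copies of ribosomal protein mRNAs, most of them intronless pseudogenes.

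Runs of C and T near the start site were more frequent in the members than in other genes. Start-site sequences were taken from RefSeq (GRCm38.p6, 1 window per gene), which held 57 of the 78 members. The coding strand was searched within 15 bases on either side of the start. An unbroken run of at least 8 C or T was found in 24 of the 57 (42.1%), against 1217 of 10226 other tested genes (11.9%). Runs of at least 10 were found in 28.1% and 5.6%. A run was not required to span the start or to begin with a C, so these are counts of nearby runs and not of TOP tracts. The windows of the 12 members whose reads are given library by library below and that RefSeq held are printed 5′ to 3′, each of 30 bases and with the longest run of C or T in capitals.
Rpl38, chr11:114668565-114668594 (+): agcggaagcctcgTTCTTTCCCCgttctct
Rps18, chr17:33955651-33955680 (−): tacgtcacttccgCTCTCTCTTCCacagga
Rpl28, chr7:4792950-4792979 (+): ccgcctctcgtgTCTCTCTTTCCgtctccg
Rps6, chr4:86857353-86857382 (−): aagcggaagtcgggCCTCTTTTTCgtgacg
Rplp2, chr7:141447636-141447665 (+): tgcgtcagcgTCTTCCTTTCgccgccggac
Rps27l, chr9:66946071-66946100 (+): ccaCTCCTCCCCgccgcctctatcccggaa
Rplp0, chr5:115559452-115559481 (+): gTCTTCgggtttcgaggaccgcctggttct
Rps16, chr7:28350674-28350703 (+): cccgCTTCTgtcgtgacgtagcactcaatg
Rps19, chr7:24884577-24884606 (+): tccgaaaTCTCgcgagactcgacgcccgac
Rps4x, chrX:102189377-102189406 (−): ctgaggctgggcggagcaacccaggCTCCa
Rpl23, chr11:97782425-97782454 (−): acgaggTCCggtcacgtggctgagtgggcg
Rpl10, chrX:74270801-74270830 (+): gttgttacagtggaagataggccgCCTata
The first 5 windows have a run of 10 or 11 bases that spans the annotated start. That of Rps27l has 9 bases and lies upstream, and the other 6 windows have runs of 3 to 5 bases. In the 300 bases from 250 before to 50 after the start, the hexamer CGGAAG, the core of sites for ETS factors, was found on either strand in 39 of 57 members (68.4%) and in 29.7% of the other tested genes. ATGGCG, the core of YY1 sites, was present in 17 of 57 members (29.8%) and in 1537 of 10226 other genes, and TATAAA in 10.5% and 6.8%. All motifs were searched for on both strands, and ATGGCG and CGGAAG can share the bases CG. Such matches describe the sequence and do not show binding.

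Read numbers per listed member spanned a wide range, whose low end is bounded by the authors' minimum of 40 reads. Per kilobase of exons, Rplp1 had the highest level, 10658 normalised reads on average over the 6 libraries (range 8309 to 13966), and Rps13 the lowest, 10.8 (range 7.44 to 16.9), a ratio of 986. The range depends on the length used: per kilobase of 1 transcript, the members ran from 43.3 (Rps23) to 15013 (Rpl8), a ratio of 346. Among the other high members were Rpl8 at 9401, Rps3a2 at 6491, Rpl41 at 5401 and Rpl4 at 5217 reads per kilobase. Rpl8 and Rpl4 are proteins of the large-subunit core and Rpl41 is the shortest protein of the set. The other end held Rpl17 at 26.3, Rpl37 at 29.3, Rps27 at 31.9, Rps23 at 32.0 and Rpl22l1 at 34.9. The median member stood at 208 reads per kilobase and the median of all 14393 tested genes with a length at 111. Only 46 of the 78 members lay above that median, and 7 were among the 1% of genes with the highest level per kilobase. In normalised reads, 25 members averaged over 1000, 40 between 100 and 1000 and 13 under 100, and the 10 members with the most reads held 62.4% of all reads of members. Neighbours in this order often overlapped between libraries: Rpl8 ranged from 8467 to 10505 reads per kilobase, inside the range of Rplp1, whereas the highest library of Rps3a2 (7401) lay below the lowest of Rpl8.

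**Figure D1:**
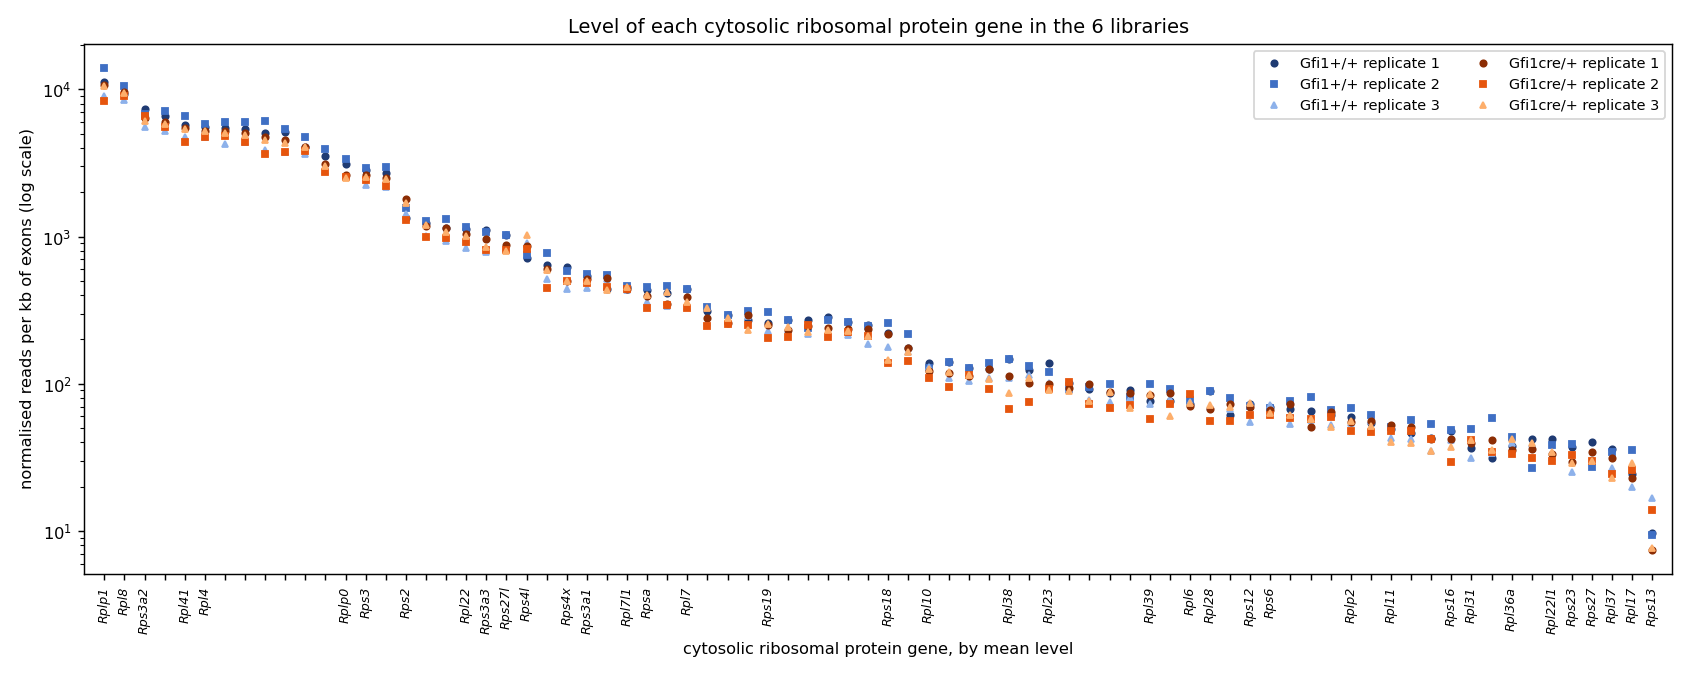
Normalised reads per kilobase of exons (log scale) of each of the 78 cytosolic ribosomal protein genes, ordered by mean, with 1 point per library and the names of members described in the text. The 6 libraries lie close together at each gene, while the genes range from 10.8 (Rps13) to 10658 (Rplp1), with Gfi1+/+ replicate 2 often the highest point.

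Members with more sequence repeated elsewhere had lower levels on average. For each member, every 100-base stretch of its GENCODE vM21 transcript was looked up in the transcripts of all genes at other positions, since reads that map to several places were left out of the table by the authors. Only 6 members shared no stretch, among them Rps3, Rps27l and Rpl22. The 23 members with at most 20% of stretches shared had a median of 1014 reads per kilobase, the 39 with over 20% and up to 60% had 112, and the 16 with over 60% had 73.5. Each class was wide, with ranges from 56.8 to 9401, from 29.3 to 10658 and from 10.8 to 6491. Across the 78 members, which share libraries and often sequence, Spearman's rho of level and shared percentage was −0.47 and Pearson's r with the log2 level was −0.47. Rps27 (98.4% shared), Rps6 (83.6%) and Rpl36a (83.6%) stood at 31.9, 66.7 and 38.6 reads per kilobase, and Rps2 (64.7% shared) at 1518. At the other end, Rplp2 was low (56.8) with 17.2% shared.

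Many members stood beside a listed copy with more reads. The table listed 94 genes that share a stretch with a member, lie elsewhere and have 1 exon or a pseudogene annotation. Of these, 87 are annotated as pseudogenes and 90 have a single exon. They belonged to 59 members, and for 46 of the 59 the copies together had more reads than the member. In a library the copies took 1.12% to 1.58% of reads and the members 0.710% to 0.956%, and the copies had 1.58 to 1.71 times the reads of the members. Aligned to the member's coding bases, the 94 copies were 94.9% to 100% identical (median 99.35%), and 15 had no different base. A member and its copy with the same sequence cannot be told apart by a read inside it, so the values below are reads assigned to a locus.

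Rps16 had 60.5, 61.8 and 52.7 normalised reads in Gfi1+/+ and 53.1, 37.3 and 47.2 in Gfi1cre/+, an average of 41.1 per kilobase, while Rps16-ps2 (chr5:129128077-129128517), identical over all 438 coding bases, averaged 18185 per kilobase. Rps6, the ribosomal protein phosphorylated by S6 kinases, averaged 66.7 reads per kilobase and Rps6-ps4 (chr2:75191073-75191822), identical over 747 bases, 8663. For Rpl38 the averages per kilobase were 111.7 and, at Rpl38-ps2 (chr6:140746960-140747172), 9446 over an identical 210 coding bases. These copies were chosen after their values were seen. In each of these 3 pairs the single-exon copy held the larger part of the reads.

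The family of Rps27 shows a member, an identical copy and a diverged paralogue side by side. Rps27 (chr3:90212522-90213651) and its intronless copy Rps27rt (chr9:114982366-114982739) are identical over all 252 coding bases, whereas the paralogue Rps27l (chr9:66946086-66949516) is 76.2% identical. Coding bases 4 to 63 are printed, with the bases at which Rps27l and Rps27 differ in capitals.
Rps27: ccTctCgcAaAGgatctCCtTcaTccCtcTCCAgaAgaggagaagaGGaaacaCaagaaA
Rps27rt: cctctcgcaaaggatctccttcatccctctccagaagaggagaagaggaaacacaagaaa
Rps27l: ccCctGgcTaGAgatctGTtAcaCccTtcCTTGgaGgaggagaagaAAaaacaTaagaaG
Rps27l differs from Rps27 at 19 of these 60 bases and shared no 100-base stretch with another gene. It averaged 894 reads per kilobase, Rps27rt 4942 and Rps27 31.9. Reads of Rps27l can thus be told from those of the other two genes, whose coding sequences cannot be told from each other.

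Rps3a, a small-subunit protein, has 3 listed loci. Rps3a1 (chr3:86137940-86142702) is the gene with introns, and Rps3a2 (chr14:88123017-88123808) and Rps3a3 (chr13:108670603-108671397) are annotated as processed pseudogenes. Over the 792 coding bases of Rps3a1, Rps3a2 differed at 4 and Rps3a3 at 8. The stretch from coding base 201 to 260 is printed, with the bases that differ in capitals.
Rps3a1: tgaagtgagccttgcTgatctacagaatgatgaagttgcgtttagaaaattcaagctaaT
Rps3a2: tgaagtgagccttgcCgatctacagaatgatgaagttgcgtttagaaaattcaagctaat
Rps3a3: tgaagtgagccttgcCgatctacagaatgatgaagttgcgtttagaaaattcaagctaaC
Per kilobase, Rps3a2 had between 5567 and 7401 normalised reads in a library, Rps3a3 between 783 and 1107 and Rps3a1 between 446 and 560. The locus annotated as a pseudogene thus stood above the gene with introns in every library.

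Adding the reads of the listed copies to their members drew the 10th and 90th percentiles of level together, but not the extremes. Per kilobase of transcript, the 75 protein-coding members alone had a median of 415 and a 90th percentile 81.9 times the 10th. With the copies added, the median was 5123 and that ratio 24.7, and the number of members under 1000 reads per kilobase went from 55 to 17. The lowest value stayed at 43.3, and the highest went from 15013 to 28447.5, so the full range widened. These sums leave out reads with several positions, which the authors discarded.

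**Figure D2:**
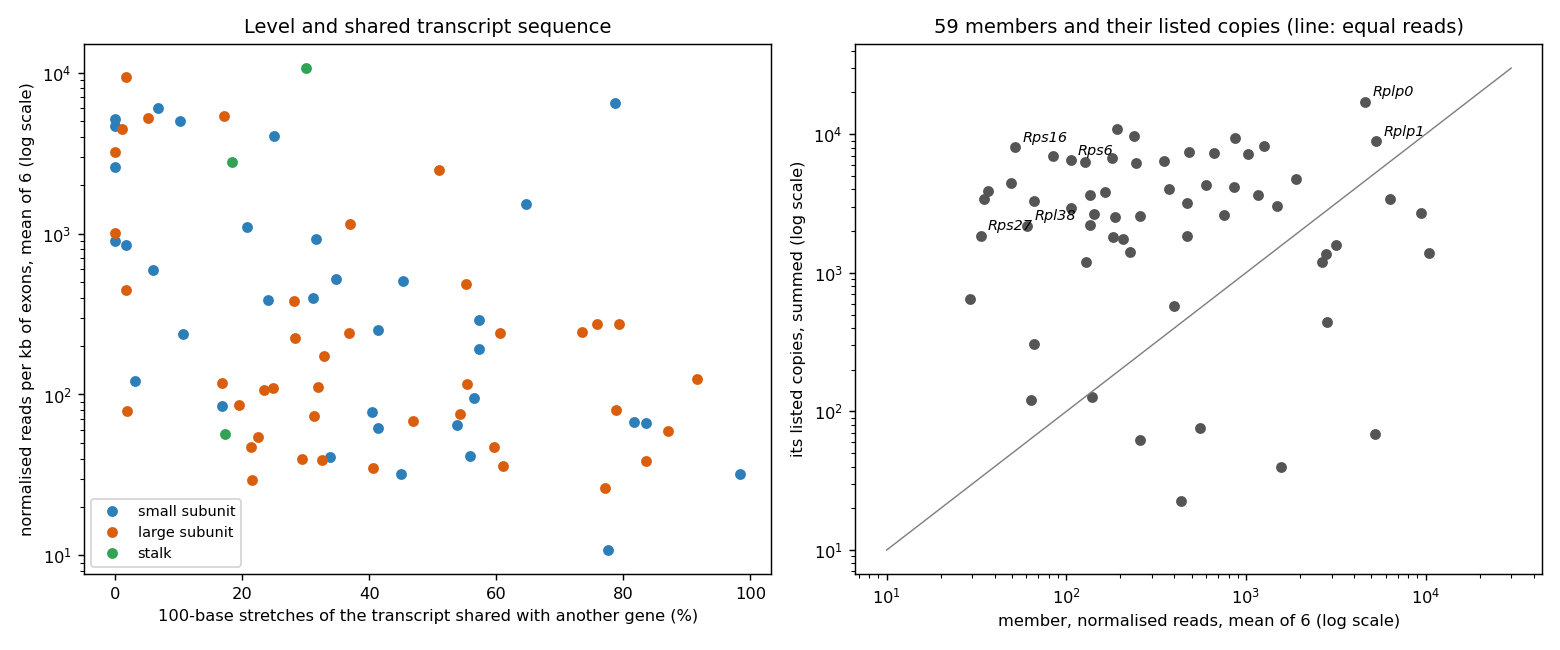
Left, mean normalised reads per kilobase of exons (log scale) of the 78 members against the percentage of 100-base stretches shared with another gene; right, for the 59 members with listed copies, the summed reads of the copies against those of the member (both log scales, line at equality). The median falls from 1014 reads per kilobase at most 20% shared to 73.5 over 60% shared, and 46 of the 59 points on the right lie above the line.

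The members moved together across the 6 libraries. On log2(value + 1), with each gene set to its own mean over the libraries, the median member stood at 0.11 in Gfi1+/+ replicate 1, 0.21 in replicate 2 and −0.14 in replicate 3. In Gfi1cre/+ it stood at 0.02, −0.16 and −0.03 in replicates 1, 2 and 3. Gfi1+/+ replicate 3 thus lay with the Gfi1cre/+ libraries and below 2 of them. The highest library of a member was Gfi1+/+ replicate 2 in 49 and Gfi1+/+ replicate 1 in 20 of the 78, and the lowest was Gfi1cre/+ replicate 2 in 34 and Gfi1+/+ replicate 3 in 24. Within Gfi1+/+, 72 of 78 members were higher in replicate 2 than in replicate 3, while all genes tested were split evenly. Within Gfi1cre/+, 67 of 78 were higher in replicate 1 than in replicate 2, against 49.7%.

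As a description over 6 libraries, which share their depth and composition among all genes, the median Pearson's r over pairs of members was 0.64, and it was −0.001 over pairs of all genes tested. It was 0.87 for the 23 members with at most 20% of stretches shared, 0.52 for the other 55 and 0.77 for the 90 copies that passed the minimum. Those 23 also had higher levels, with a median of 1014 reads per kilobase against 112 and 73.5 in the classes with more sharing. The part of read depth in r was not tested. The 3 stalk genes reached 0.87. The small-subunit members (34 genes) had a median r of 0.67 and the large-subunit members (41 genes) of 0.59. The spread between replicates was wider for members than over all genes tested. On the log2 scale the median SD was 0.21 in Gfi1+/+ and 0.13 in Gfi1cre/+, against 0.12 and 0.07. A Gfi1+/+ library held 1 mouse and a Gfi1cre/+ library 3, and the part of this in the SDs was not tested.

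**Figure D3:**
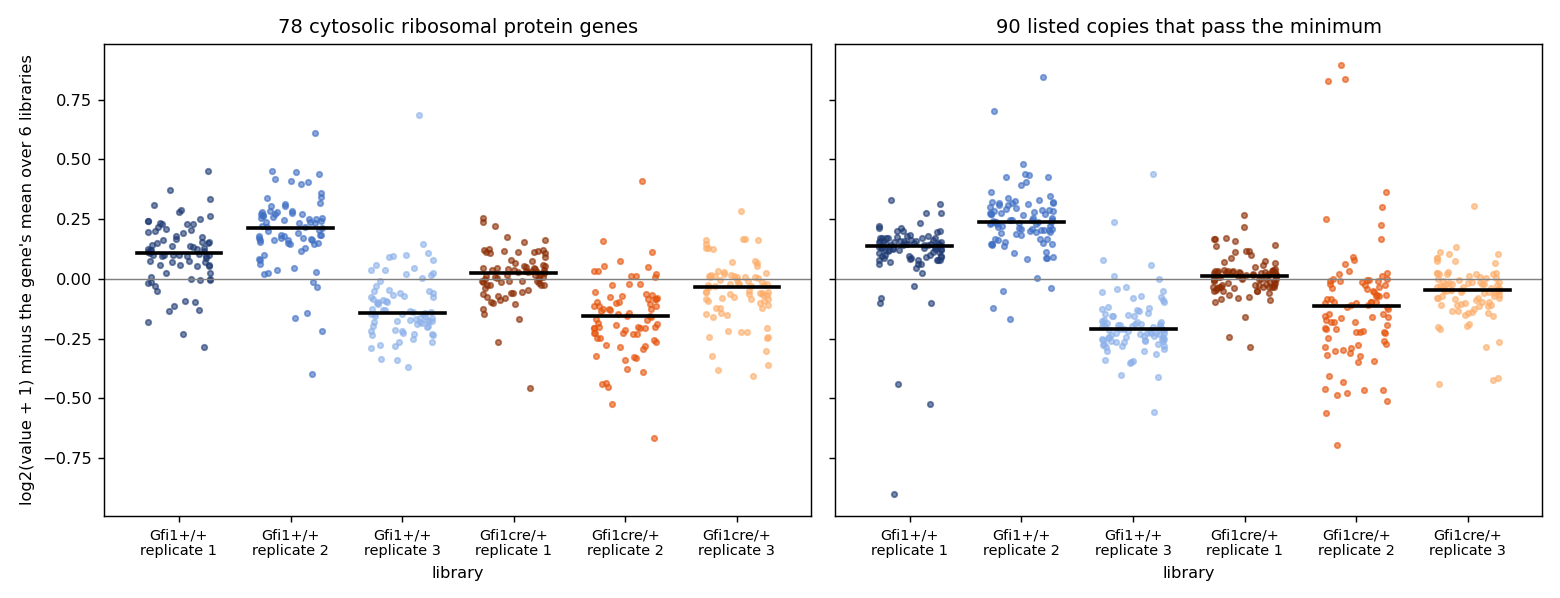
Deviation of each gene from its own mean over the 6 libraries, log2(value + 1), for the 78 members (left) and the 90 copies that passed the minimum (right), with 1 point per gene and a bar at the median. In both panels the medians of Gfi1+/+ replicates 1 and 2 lie above 0 and those of Gfi1+/+ replicate 3 and Gfi1cre/+ replicate 2 below it.

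Other genes moved with this pattern to a smaller extent. The 643 other tested genes with under 1000 exon bases had medians of 0.09, 0.06 and −0.08 in the Gfi1+/+ libraries and 0.02, −0.10 and −0.01 in the Gfi1cre/+ libraries. After a loess correction of each library for exon length and GC content, the members had medians of 0.07, 0.18 and −0.09 in Gfi1+/+. In Gfi1cre/+ they were −0.0007, −0.10 and −0.03. The medians of the short genes then lay between −0.04 and 0.03, but these genes were chosen by the length that the correction fits. Exon length joined the exons of all transcripts (6270 bases for Rps15a), so the part of mRNA length in the members was not tested. Among the cell type markers, the summed neuron list ran from 1962 to 8514 normalised reads in Gfi1+/+ and from 1582 to 2272 in Gfi1cre/+, with 8514 in replicate 1. The erythroid list, which was 29467 to 43827 and 38314 to 66338, was lowest in Gfi1+/+ replicate 1, and the bone and cartilage list, 292178 to 410569 and 352008 to 376663, was highest in Gfi1+/+ replicate 3. The HC list, of which 5 of 6 genes were listed, ran from 3387 to 3443 and from 3068 to 3227. Lists of supporting cells (59793 to 85622 and 67078 to 78987), stria vascularis (54480 to 58417 and 58752 to 60536) and dividing cells (622 to 932 and 799 to 1036) were present throughout, and of the skeletal muscle list 1 of 7 genes was listed (15.7 to 26.4). The part of cell composition in the levels of the members was not tested, and fewer cells of a type and less RNA per cell cannot be told apart.

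Between genotypes, no member passed the test. With limma on log2(value + 1) and Benjamini-Hochberg adjustment over the 14455 genes tested, 0 of 78 members had an adjusted p under 0.05, against 0.0277% of all genes, and the adjusted p was 0.999 for every member. At an unadjusted p under 0.05, 6 members were lower in Gfi1cre/+, against a background of 2.02%, and 0 were higher, against 1.02%. DESeq2 and edgeR on the recovered reads also called 0 members and gave 6 lower members each at that level, where 2.01% and 2.62% of all genes were lower. The 3 values of each genotype did not overlap in 4 members, all lower in Gfi1cre/+ and Rpl10, Rpl23 and Rps6 among them, against a background of 4.07%, and in 0 with Gfi1cre/+ higher, against 3.45%. The first of these shares, 6 of 78, is above the background and the second, 4 of 78, is near it.

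The point estimates lay mostly on one side. The log2 fold change, Gfi1cre/+ minus Gfi1+/+, was below 0 for 71 of the 78 members, with a median of −0.12 and quartiles of −0.18 and −0.05, while over all genes tested it was below 0 for 7237 of 14455, with a median of −0.0001. Because the members follow each other from library to library, the 71 are not 71 separate observations. The summed normalised reads of the members were 146344, 159223 and 120835 in Gfi1+/+ and 138376, 122936 and 134568 in Gfi1cre/+, which overlap. The sums averaged 142134 ± 19537 and 131960 ± 8044 (SD, n = 3 each). The median fold change was the same to within 0.01 for the small subunit (−0.11, 34 genes) and the large subunit (−0.11, 41 genes), and the 23 members with at most 20% of stretches shared gave −0.11.

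These figures turned on single libraries. Without Gfi1+/+ replicate 3 the median was −0.20, 39 members were lower at an unadjusted p under 0.05, against 8.7% of all genes in that fit, and Rplp0 alone had an adjusted p under 0.05 (0.0432). Without Gfi1+/+ replicate 2 the median was −0.04 with 0 such members (2.54% of all genes), without Gfi1cre/+ replicate 2 it was −0.07 with 0 (0.969%), and without Gfi1+/+ replicate 1 it was −0.10 with 1 (1.17%). Leaving out Gfi1cre/+ replicate 1 gave −0.16 with 9 (1.34%), and leaving out Gfi1cre/+ replicate 3 gave −0.13 with 2 (1.14%).

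**Figure D4:**
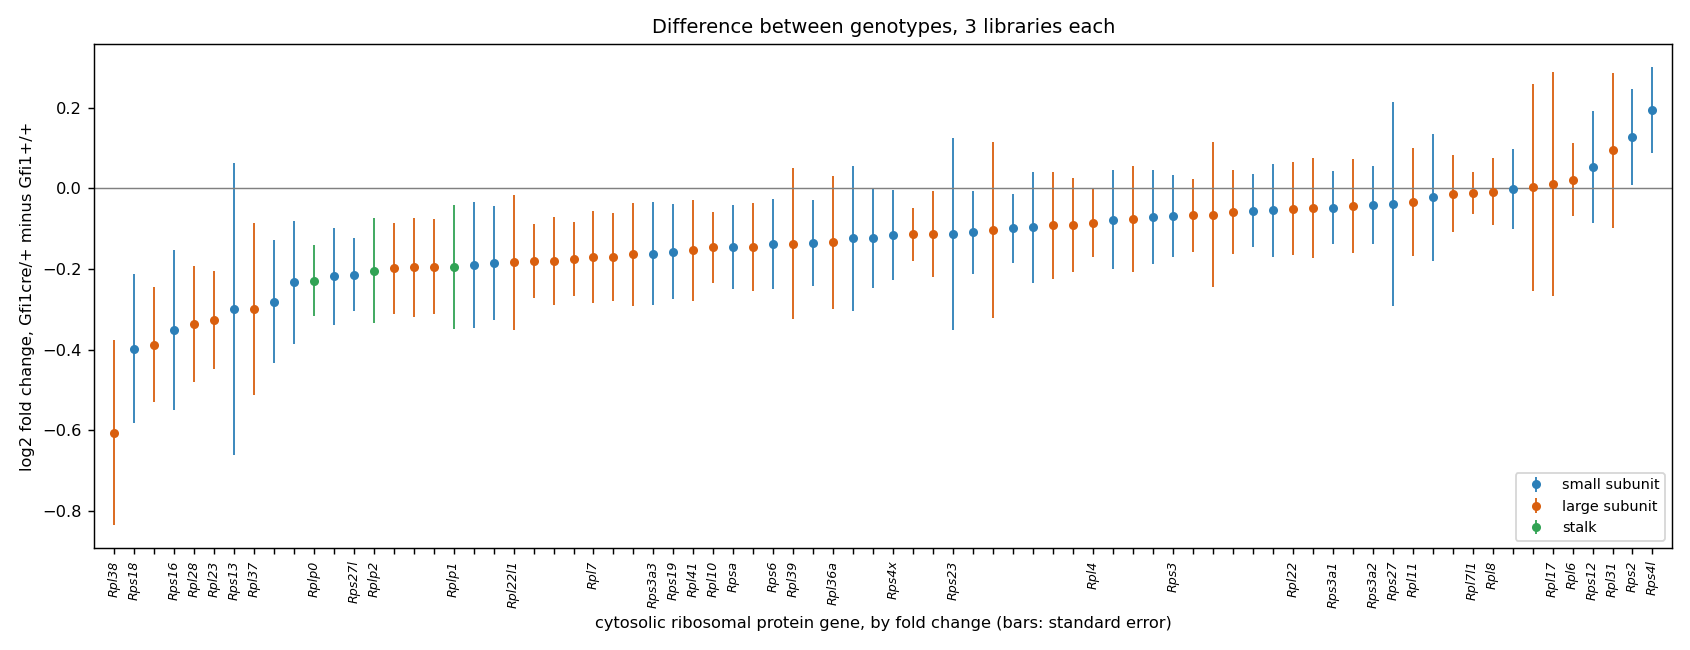
Log2 fold change (Gfi1cre/+ minus Gfi1+/+) of each of the 78 members with its standard error from limma, 3 libraries per genotype, coloured by subunit and with the names of members described in the text. Estimates run from −0.61 (Rpl38) to 0.19 (Rps4l), and 71 of 78 lie below 0, none with an adjusted p under 0.05.

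Among the large-subunit proteins, Rpl38 had the lowest fold change. Loss of Rpl38 causes the Tail-short phenotype of the mouse, with changes of the skeleton and the middle ear. Rpl38 (chr11:114668524-114672331, GRCm38) had 80.2, 79.6 and 59.1 normalised reads in Gfi1+/+ and 60.9, 36.4 and 47.2 in Gfi1cre/+, so Gfi1+/+ replicate 3 lay just below Gfi1cre/+ replicate 1. Its log2 fold change was −0.61 ± 0.23 (SE; limma, unadjusted p = 0.0265, adjusted p = 0.999). At Rpl38-ps2, which holds most reads of this sequence, the values were 2203, 2686 and 1751 against 1879, 1585 and 1967, and the log2 fold change was −0.27 ± 0.14. The estimate at the copy was nearer 0 than that at the member.

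Rpl23, one of the ribosomal proteins that can bind the p53 regulator Mdm2, had 243, 214 and 179 normalised reads in Gfi1+/+ and 178, 164 and 161 in Gfi1cre/+, a log2 fold change of −0.33 ± 0.12 (limma, unadjusted p = 0.0241). The groups just failed to meet, with Gfi1+/+ replicate 3 at 179.3 and Gfi1cre/+ replicate 1 at 177.6. Rpl28 had 164, 163 and 128 against 124, 103 and 132 and −0.34 ± 0.14 (limma, unadjusted p = 0.0438), and its groups overlapped. Rpl28-ps1, a copy identical over all 411 coding bases, averaged 3617 normalised reads against 136 at Rpl28 and was at −0.07 ± 0.10. Rpl37 was at −0.30 ± 0.21 and Rpl11, which also binds Mdm2 when ribosome assembly fails, at −0.03 ± 0.13. Rpl31 was at 0.09 ± 0.19, Rpl6 at 0.02 ± 0.09 and Rpl17 at 0.01 ± 0.28.

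The 3 stalk genes had levels of 10658 (Rplp1), 2792 (Rplp0) and 56.8 (Rplp2) reads per kilobase of exons. Their joined exons were 499, 1659 and 2072 bases long, and the levels depend on that length. Their fold changes were close to each other. Rplp0 (chr5:115559467-115563727) had 5153, 5564 and 4312 normalised reads in Gfi1+/+ and 4375, 4209 and 4173 in Gfi1cre/+, a log2 fold change of −0.23 ± 0.09 (limma, unadjusted p = 0.0290). Its 3 Gfi1cre/+ values spanned a narrow range, which Gfi1+/+ replicate 3 entered. Gm8730, a listed copy with 12 different bases of 951, averaged 14108 reads against 4631 at Rplp0 and was at −0.14 ± 0.09. Rplp1 had 5620, 6969 and 4511 against 5386, 4146 and 5279 (−0.19 ± 0.15) and Rplp2 had 123, 142 and 113 against 114, 98.5 and 115 (−0.20 ± 0.13). Gm10073, a listed copy of Rplp1 with 5 different bases of 342, averaged 8826 reads against 5319 at Rplp1 and was at −0.13 ± 0.13. In all 3 stalk genes Gfi1+/+ replicate 2 was the highest library.

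In the small subunit, Rps27l, whose gene is a target of p53, was the member with an unadjusted p under 0.05: it had 834, 843 and 678 normalised reads against 712, 660 and 650 (−0.21 ± 0.09; limma, unadjusted p = 0.0422). Rps18 had the lowest estimate at −0.40 ± 0.18, with 541, 630 and 432 reads in Gfi1+/+ and 536, 340 and 353 in Gfi1cre/+. Its replicates differed within each genotype by more than the means did between genotypes. Rps16 stood at −0.35 ± 0.20 and Rps13 at −0.30 ± 0.36, and Rps13 had as few as 21 reads in a library. Rps16-ps2, which held more reads than Rps16, was at −0.16 ± 0.14. Rps19, the gene most often mutated in Diamond-Blackfan anaemia, had 1213, 1441 and 1063 against 1171, 960 and 1192 (−0.16 ± 0.12). Rps6 had 111, 108 and 114 against 104, 96.8 and 100.96, without overlap, at −0.14 ± 0.11, and Rps6-ps4 was at −0.005 ± 0.10. The highest estimates were those of Rps4l (0.19 ± 0.11), Rps2 (0.13 ± 0.12) and Rps12 (0.05 ± 0.14).

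The 4 members on chromosome X had fold changes within the range of the others. Rps4x had 1006, 952 and 723 normalised reads in Gfi1+/+ and 813, 818 and 818 in Gfi1cre/+ (log2 fold change −0.12 ± 0.11). Rpl10, Rpl36a and Rpl39 were at −0.15 ± 0.09, −0.13 ± 0.17 and −0.14 ± 0.19. Of these, Rpl10 had groups without overlap, at 284, 261 and 268 against 252, 224 and 259. Xist, expressed from the inactive X chromosome of females, had 7338 to 8138 reads in Gfi1+/+ and 2301 to 5359 in Gfi1cre/+, beside the Y-linked reads in the latter.

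Paralogues were compared with their counterparts as a log2 ratio of (value + 1) within each library, without correction for length. Listed copies held more reads than most counterparts: 7202 against 1023 at Rpl7, 4140 against 855 at Rps4x and 1848 against 33.3 at Rps27. The level of a ratio therefore compares reads assigned to 2 loci and does not show which gene is expressed more. With 5 pairs compared and 3 against 3 libraries, the exact permutation test cannot give a p below 0.1. Rps27l to Rps27 had log2 ratios of 4.28, 4.85 and 4.38 in Gfi1+/+ and 4.28, 4.37 and 4.34 in Gfi1cre/+. Rpl22l1, a paralogue of Rpl22 known for its rise where Rpl22 is lost, was at −5.26, −5.44 and −5.26 against −5.49, −5.48 and −5.40, the pair with the least overlap. For Rpl7l1, a nucleolar relative of Rpl7, the ratios were 0.41, 0.44 and 0.76 against 0.58, 0.80 and 0.72. Rps4l to the X-linked Rps4x was at −0.57, −0.42 and 0.24 against −0.005, −0.07 and 0.24, and Rpl36al to the X-linked Rpl36a at 3.98, 3.74 and 3.73 against 3.95, 3.90 and 3.64. The differences between genotypes were −0.17, −0.13, 0.16, 0.31 and 0.01 in this order, with exact two-sided permutation p of 0.4, 0.2, 0.3, 0.3 and 1, and 0.5, 0.5, 0.5, 0.5 and 1 after Benjamini-Hochberg adjustment over the 5 pairs. The values of the genotypes overlapped in each pair.

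**Figure D5:**
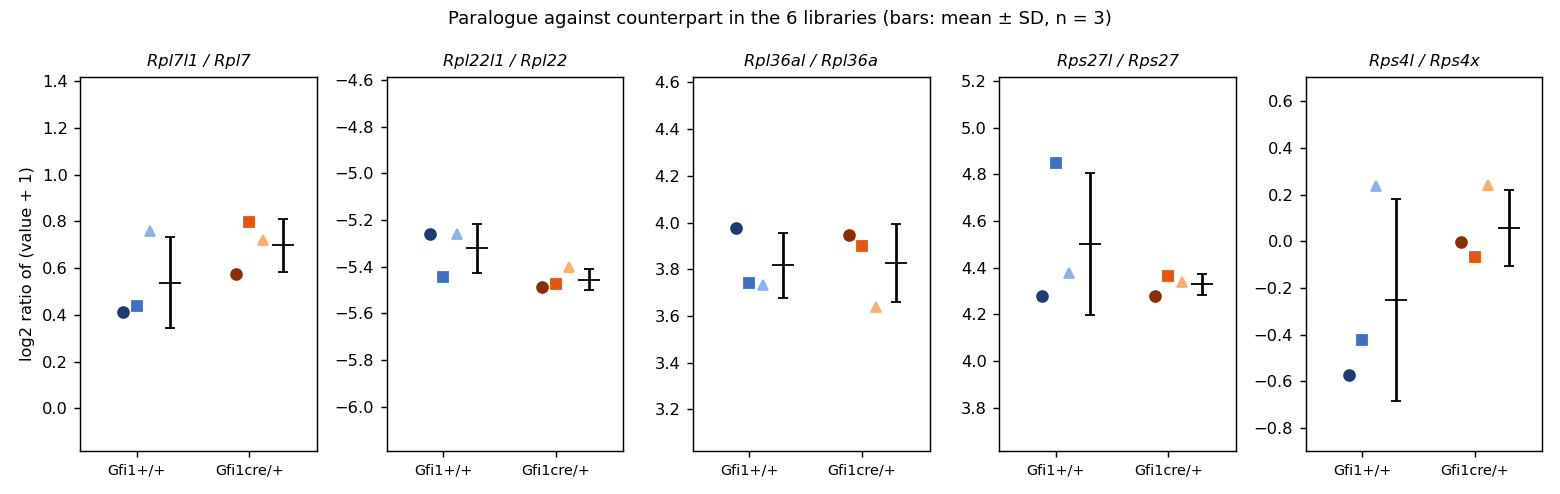
Log2 ratio of (value + 1) of 5 paralogues to their counterparts in the 6 libraries, with circle, square and triangle for replicates 1, 2 and 3 and bars for mean ± SD (n = 3). The panels share the span of their log2 axes, and in none do the genotypes differ with an exact p below 0.2.

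Genes of ribosomal proteins whose names fall outside the pattern gave values on both sides. Fau, which encodes a ubiquitin-like protein fused to a small-subunit protein, had 85.2, 195 and 160 normalised reads in Gfi1+/+ and 171, 178 and 178 in Gfi1cre/+ (log2 fold change 0.34 ± 0.25), with the low value in Gfi1+/+ replicate 1. Rpl36al was at −0.12 ± 0.07. Gnb2l1, the scaffold protein Rack1 of the small subunit, had 14836, 15973 and 12475 reads against 14447, 13502 and 13842 (−0.04 ± 0.09). Gfi1+/+ replicate 3 was again the lowest library.

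The pathway around the ribosome was described by 4 lists, none of which held a gene with an adjusted p under 0.05. Of 20 translation factors and other mRNAs with a TOP tract, 2 were lower and 0 higher at an unadjusted p under 0.05 by limma, against 2.02% and 1.02% of all genes, with a median log2 fold change of −0.07 and a median pairwise r of 0.55. They were Hnrnpa1, an RNA-binding protein (−0.20 ± 0.07), and Naca, which shields nascent chains (−0.17 ± 0.06). The nucleolar chaperone Npm1 stood at −0.16 ± 0.09. Of 43 ribosome assembly genes 0 passed that level, with a median of −0.02 and a median r of 0.13, and of 12 listed regulators such as Mycn, Tsc1 and Larp1 0 passed, with a median of −0.02 and a median r of 0.04. The smallest p among assembly genes belonged to Tsr1 (−0.15 ± 0.10), Sbds (0.08 ± 0.06) and Rrn3 (−0.07 ± 0.05), and the 3 regulators named were at −0.08 ± 0.10, 0.08 ± 0.07 and 0.05 ± 0.07.

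Ribosomal proteins of the mitochondrion, which translate the mitochondrial genome, had a median of −0.04 over 75 genes. At an unadjusted p under 0.05, 2 of the 75 were lower and 1 higher by limma, shares near the 2.02% and 1.02% of all genes. Mrpl40 and Mrpl48 were at −0.27 ± 0.08 and −0.22 ± 0.08, and Mrps34 was at 0.51 ± 0.21. Their median pairwise r of 0.38 lay between that of the cytosolic members and that of all genes. Their medians per library were 0.08, 0.05 and −0.06 in Gfi1+/+ and 0.02, −0.06 and −0.02 in Gfi1cre/+. These had the signs of the cytosolic members in 6 of 6 libraries. The medians of the 643 other tested genes with under 1000 exon bases and of the TOP list had the same signs.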

How the data were processed

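RNA-seq of P8 cochlear ducts was analysed from the table of values per gene. The authors mapped paired-end polyA reads with TopHat to the mouse genome (mm10); HTSeq assigned those with a unique position to genes, and genes under 40 reads were dropped. Their methods name quantile normalisation, but the 6 columns did not share their quantiles. The deposited signal of every gene was a whole number of reads divided by 1 factor per library (100% of values in each library, within 0.1 of a read), here called normalised reads. The factors ran from 0.810 to 1.15. The annotation, strand setting and versions are not given in the sources used here; without strand, overlapping genes may share reads.

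Genes with at least 40 normalised reads in 1 library were tested with limma 3.58.1 (R 4.3.3, eBayes with trend, two-sided) on log2(value + 1), genotype being the sole factor, and adjusted over all tested genes by Benjamini-Hochberg. Fold changes on this scale understate changes of low genes. The steps were tested on simulated data with independent genes and changes larger than those of any member. That test does not cover small changes shared by many genes. Exon lengths, positions and transcripts came from GENCODE vM21 (GRCm38, the build mm10), which matched 14796 listed genes. No genome sequence was used. Replicates are separate mice in Gfi1+/+ and pools of 3 mice in Gfi1cre/+. With 3 libraries per genotype, p measures the spread between these libraries. The fit used 1 variance per gene for both genotypes, although the median SD over all genes was 0.12 in Gfi1+/+ and 0.07 in Gfi1cre/+. The recovered reads were also tested with edgeR 4.0.16 and DESeq2 1.42.0.

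Members, gene lists and tests were chosen with earlier results of these data known. Members named are the 6 highest and 6 lowest by level per kilobase and by fold change, those with an unadjusted p under 0.05, paralogues, stalk and X-linked genes, Rpl38, Rps6, Rps19 and Rpl11, with 3 genes per list by smallest p. Others were named after their values were seen, and some genes that the rule names are not reported here. Alternatives were other pseudocounts and minima, scalings, a length and GC correction, a replicate block, other tools and each library left out.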

Additional observations from a re-analysis of the deposited data

How the results depend on the processing

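The median log2 fold change of the members stayed below 0 under every alternative run, from −0.20 to −0.04 with each library left out and from −0.20 (array weights, which gave Gfi1+/+ replicate 3 a weight of 0.31) to −0.10 (length and GC correction) otherwise. Over protein-coding members alone it was −0.12, over members with at most 20% of stretches shared −0.11, and with members summed with their copies −0.11, 3 alternatives chosen after seeing the data. With 1 library left out, between 0 and 1 members had an adjusted p under 0.05, 0 to 39 were lower at an unadjusted p under 0.05 (0.969% to 8.7% of all genes), and 4 to 47 had genotypes that did not overlap in either direction (13.5% to 34.5% of all genes, against 7.52% with every library). The 39 and the 47 both came without Gfi1+/+ replicate 3, where those shares were 8.7% and 34.5%. The count lower at an unadjusted p under 0.05 was 33 with array weights (6.17% of all genes). It was 2 (1.23%) at a mean of at least 200 normalised reads, where 49 members were tested, 46 of them lower. The count without overlap was 1 at that minimum, 2 after quantile normalisation and 7 after the length and GC correction, against 6.46%, 7.4% and 8.6% of all genes. The causes were not tested, apart from the smaller number of members under the higher minimum.

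The replicate number as a block left 0 members called and 6 lower at an unadjusted p under 0.05, with the median still −0.12. Deviations of same-numbered libraries correlated at −0.09, 0.11 and −0.03, so the numbers were not taken to pair the samples.

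Of 36 named members, 12 changed sign under at least 1 alternative, none of them called. Under array weights Rps12 was at −0.0026, Rpl31 at −0.088, Rpl17 at −0.20 and Rps27 at 0.044. After the length and GC correction Rps3a2 was at 0.018, Rpl8 at 0.0076 and Rps27 at 0.0017. Median centring gave Rpl8 0.00018, quantile normalisation gave Rpl11 0.019 and Rps27 0.040, cyclic loess gave Rps27 0.012, and edgeR and DESeq2 gave Rpl17 −0.029 each. With 1 library left out, the ranges were −0.23 to 0.048 for Rpl39, −0.20 to 0.037 for Rpl22, −0.16 to 0.045 for Rps3a2, −0.31 to 0.0017 for Rps23, −0.078 to 0.13 for Rps12, −0.052 to 0.27 for Rpl31, −0.052 to 0.076 for Rpl6, −0.038 to 0.0047 for Rpl7l1, −0.085 to 0.071 for Rpl8, −0.12 to 0.067 for Rpl11, −0.17 to 0.24 for Rpl17 and −0.16 to 0.12 for Rps27. The difference in the ratio of Rpl36al to Rpl36a was −0.0039 with a pseudocount of 10 and ran from −0.047 to 0.11 with 1 library left out. The alternative that needed the genome sequence was not run. Depth limits the members under 100 normalised reads most.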
